A study of Mus musculus with 12 samples.

Results

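The 10 genes described here carry fatty acids from circulating triglyceride into the cell: *Lpl*, *Gpihbp1*, *Lmf1*, *Angptl4*, *Vldlr*, *Cd36*, *Fabp4*, *Fabp5*, *Slc27a1* and *Slc27a4*. They were taken by symbol, as genes of one route listed by their role and not by their values. Earlier results of these data were known when the genes were chosen. The deposited values are of mouse epididymal white adipose tissue (eWAT). They cover 22947 genes, of which 19241 had a value above 0 in any mouse. For each gene the rows of its Ensembl transcripts, and of assembled transcripts that match them or share a splice junction with them, were summed within a mouse. All 10 genes passed the filter on low values that left 12775 genes for testing.

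The study compared 4 groups of male C57BL/6J mice, 21 weeks old after 16 weeks of diet, with 3 mice of each group sequenced. Per its methods all mice were fasted before they were anesthetized, so the values are those of fasted mice. The groups were a normal diet (ND), a high-fat diet (HFD), the HFD with 1.5% (w/w) of an ethanol extract of chrysanthemum leaf (CLE), and the HFD with 0.003% (w/w) luteolin (LU), a flavonoid of that plant. The study describes the 3 sequenced mice of a group as representative ones, so they were selected from a larger group. Whole tissue was extracted and mRNA was sequenced, so a lower value can mean fewer cells of a type or less RNA per cell, and these cannot be told apart. Values are FPKM, that is, fragments scaled to transcript length and to the size of the library. No counts of reads come with the deposited table, which leaves the depth of every value unknown.

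Lipoproteins bring triglyceride to the capillaries of fat. Lipoprotein lipase, made by adipocytes, is folded with help from LMF1, carried across the endothelial cell and anchored at its luminal surface by GPIHBP1, and inactivated by ANGPTL4. The fatty acids it releases cross the membrane with CD36 and the transport proteins FATP1 (*Slc27a1*) and FATP4 (*Slc27a4*), and are bound in the cytosol by the carriers FABP4 and FABP5. FABP4 is the abundant carrier of adipocytes, and FABP5 is found in adipocytes, macrophages and epidermis.

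Fold changes were tested with limma on log2(FPKM + 1) in a fit of all 12 libraries. The word called is kept for genes with a Benjamini-Hochberg adjusted p below 0.05 and a fold change above 1.5. HFD against ND called 5 of the 10 genes, 2 higher (*Vldlr* and *Fabp5*) and 3 lower (*Gpihbp1*, *Fabp4* and *Slc27a1*). Over all tested genes, 25.6% were called in this comparison, 14.9% higher and 10.8% lower. CLE against HFD called 3 of the 10, all higher (*Gpihbp1*, *Fabp4* and *Slc27a1*), where 16.5% of all tested genes were called, 6.33% higher and 10.1% lower. LU against HFD called 2, both higher (*Gpihbp1* and *Fabp4*), where 12.4% of all genes were called, 4.81% higher and 7.64% lower. These 3 comparisons share the HFD mice, so a mouse of that group moves all of them together. *Lpl*, *Cd36*, *Angptl4*, *Lmf1* and *Slc27a4* were called in none of the comparisons. The median log2 fold change of the 10 genes was -0.10 for HFD against ND, 0.09 for CLE against HFD and 0.03 for LU against HFD, beside -0.02, 0.01 and 0.03 over all tested genes.

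**Figure D1:**
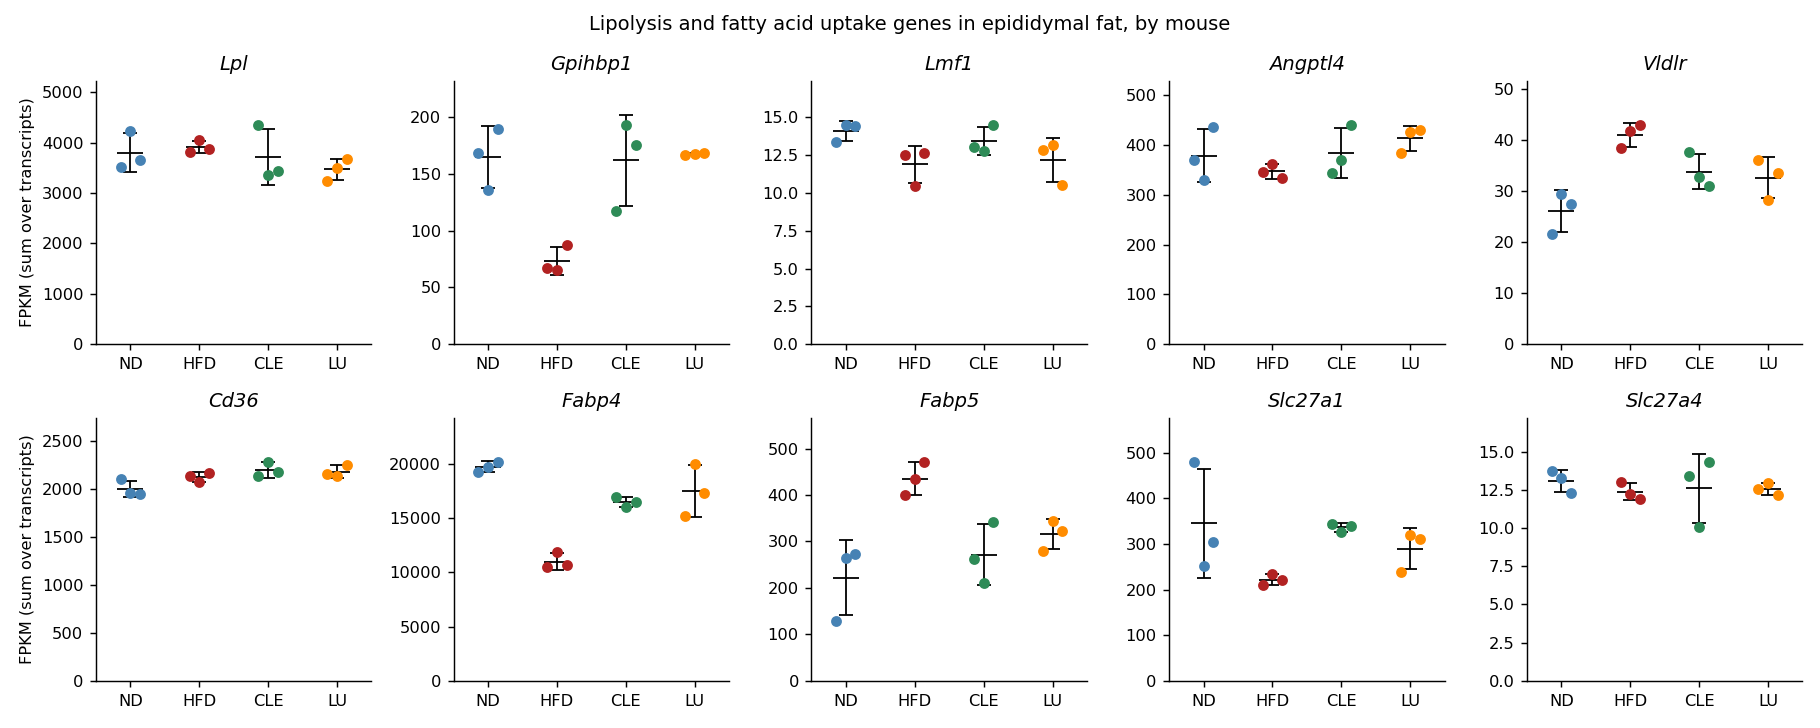
Summed FPKM (vertical axes, each from 0) of the 10 genes in each of 3 mice per diet group (points), with the group mean and SD (bars). *Gpihbp1* and *Fabp4* are lowest in the HFD mice, *Fabp5* and *Vldlr* are highest there, and the log2 fold changes of *Lpl* and *Cd36* between HFD and ND are 0.04 and 0.09.

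Before the genes are taken in turn, some properties of the libraries bear on them. Markers of adipocytes (5 genes, *Adipoq* among them) summed to between 8021 and 8429 FPKM in ND, 4345 and 5060 in HFD, 7120 and 8970 in CLE, and 6377 and 7503 in LU, and all 5 were called lower in HFD than in ND. Macrophage markers (7 genes) moved the other way, from a sum of 320 to 489 FPKM in ND to 2204 to 2530 in HFD, 559 to 818 in CLE and 887 to 1005 in LU, and all 7 were called in each of the 3 comparisons. Endothelial markers (7 genes) summed to between 363 and 568 FPKM in ND, 253 and 406 in HFD, 427 and 621 in CLE, and 485 and 552 in LU. Keratinocyte markers (4 genes) summed to 108 FPKM in HFD mouse 12 and 136 in CLE mouse 11 and to at most 1.75 in the other mice. Skeletal muscle markers were also highest in those libraries, at 4.05 and 11.6 FPKM against at most 0.509 elsewhere. A letter R of unstated meaning stands in the labels of 4 libraries, those of CLE mouse 4, LU mouse 2 and ND mice 3 and 4, and in no HFD label. In a fit with the letter as a covariate, the same 5, 3 and 2 genes were called in the 3 comparisons with HFD.

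Lipoprotein lipase hydrolyses the triglyceride of chylomicrons and VLDL. *Lpl* (ENSMUSG00000015568, chromosome 8 from 68880491 to 68907448, plus strand, GRCm38) had rank 4 of all genes by its mean over the 12 mice. Its FPKM was 3517, 4237 and 3646 in ND mice 2, 3 and 4, 3811, 4042 and 3868 in HFD mice 12, 15 and 18, 4349, 3349 and 3444 in CLE mice 2, 4 and 11, and 3238, 3497 and 3665 in LU mice 2, 3 and 8. The groups overlapped, except that the 3 LU mice were below the 3 HFD mice. HFD against ND gave a log2 fold change of 0.04 (95% confidence interval -0.20 to 0.29), with -0.08 for CLE against HFD (-0.33 to 0.16) and -0.17 for LU against HFD (-0.42 to 0.07; adjusted p = 0.275 from limma). All 3 intervals lie inside a fold change of 1.5.

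The transcripts behind this level did differ. The full-length coding transcript ENSMUST00000015712 had an FPKM of 1495, 2032 and 1599 in ND, 1021, 1173 and 1095 in HFD, 1433, 1031 and 1323 in CLE, and 1053, 1590 and 1357 in LU. All HFD mice were below all ND mice, while the CLE and LU mice spread across the range between them. It held 44.8% of the *Lpl* value in ND, 28.0% in HFD, 34.1% in CLE and 38.3% in LU. An assembled transcript that ends earlier, at 68896489, and shares a splice junction with ENSMUST00000168401, an annotated transcript of nonsense-mediated decay, went the other way, with 840, 868 and 813 FPKM in ND and 1297, 1267 and 1295 in HFD. When a gene was represented only by the transcript with the highest mean, *Lpl* was called lower in HFD than in ND, with a log2 fold change of -0.63 (adjusted p = 0.0143). The authors' software shared fragments among overlapping transcripts, so the split is an estimate, and apart from that alternative no transcript was tested on its own.

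Of the partners of the lipase, GPIHBP1, its anchor on the capillary endothelium, had the largest change. *Gpihbp1* (ENSMUSG00000022579, chromosome 15 from 75596628 to 75599481, plus strand) had 168, 136 and 190 FPKM in ND, 67.1, 65.7 and 87.4 in HFD, 117, 193 and 175 in CLE, and 167, 167 and 169 in LU. The 3 HFD mice were below each of the other 9 mice, and their mean was 44.5% of the ND mean. HFD against ND gave a log2 fold change of -1.15 (SE 0.18, adjusted p = 0.000331), with 1.11 for CLE against HFD (adjusted p = 0.000856) and 1.19 for LU against HFD (adjusted p = 0.000913). It was called in these 3 comparisons under each of the 26 alternatives. The coding transcript ENSMUST00000023243 held 69.9% of its value on average.

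Endothelial markers moved with it in part. Of the 7, 3 were called lower in HFD than in ND (*Emcn*, *Esam* and *Cldn5*), 4 were called higher with CLE and 5 with LU against HFD. *Cldn5*, a tight junction protein of endothelial cells, had a log2 fold change of -1.14 for HFD against ND, while *Pecam1*, an adhesion molecule of the same cells, had -0.32 (adjusted p = 0.239). Taken as a ratio to *Pecam1* within each library, *Gpihbp1* stood at 183% ± 20.7 in ND, 103% ± 12.8 in HFD, 154% ± 10.4 in CLE and 155% ± 16.1 in LU (SD, n = 3). The highest HFD mouse, at 117%, was below the lowest of the other mice, at 140%. The ratios to the other 6 markers were added after seeing the data, and they differed by marker. The HFD mice were below all ND mice in the ratio of *Gpihbp1* to 6 of the 7 markers, and below all other 9 mice in 4. To *Cldn5* they were not, with 102% to 114% in HFD, 96.0% to 122% in ND, 92.2% to 151% in CLE and 117% to 123% in LU. The part of endothelial content in the result was not tested. The genes whose log2 values followed *Gpihbp1* most closely over the 12 libraries were *Hrct1*, *Car4* and *Als2cl*, with Pearson's r of 0.98, 0.98 and 0.97.

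LMF1 is an endoplasmic reticulum protein needed for active lipase. *Lmf1* (ENSMUSG00000002279, chromosome 17 from 25579085 to 25662826, plus strand) was low, with 13.4, 14.5 and 14.4 FPKM in ND, 12.5, 10.5 and 12.7 in HFD, 13.0, 12.8 and 14.5 in CLE, and 12.9, 13.2 and 10.5 in LU. The HFD mice were all below the ND mice, by a log2 difference of -0.23 that was not called (adjusted p = 0.0829). The inhibitor *Angptl4* (ENSMUSG00000002289, chromosome 17 from 33773750 to 33781830, minus strand) had 369, 330 and 436 FPKM in ND, 345, 362 and 333 in HFD, 343, 370 and 440 in CLE, and 384, 425 and 430 in LU. ND and HFD overlapped, and the 3 LU mice were above the 3 HFD mice by a log2 fold change of 0.25 (95% confidence interval -0.01 to 0.51, adjusted p = 0.141). The leading *Angptl4* transcript, ENSMUST00000173869, annotated as subject to nonsense-mediated decay, held 52.4% of the value on average. The coding ENSMUST00000002360 held 39.0%. An antisense row at this gene, with 12.9 to 30.6 FPKM, was left out, and since no use of strand in the counting is stated, its reads cannot be told apart from those of *Angptl4*. The ratio of *Angptl4* to *Lpl* was 10.1% ± 2.11 in ND, 8.88% ± 0.236 in HFD, 10.6% ± 2.47 in CLE and 11.9% ± 0.215 in LU (SD, n = 3), and its ranges overlapped between ND, HFD and CLE.

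The VLDL receptor binds triglyceride-rich lipoproteins and holds them near the lipase. *Vldlr* (ENSMUSG00000024924, chromosome 19 from 27216484 to 27254231, plus strand) had 21.5, 29.3 and 27.4 FPKM in ND, 38.4, 41.7 and 42.9 in HFD, 37.6, 32.8 and 31.0 in CLE, and 36.1, 28.2 and 33.5 in LU. Highest of the 12 were the HFD mice, and the CLE and LU mice lay mostly between them and ND. *Vldlr* rose with HFD against ND by a log2 fold change of 0.64 (SE 0.13, adjusted p = 0.00154). Without ND mouse 2 it was 0.52 and no longer past the fold of 1.5. The differences from HFD were -0.27 for CLE (adjusted p = 0.122) and -0.33 for LU (adjusted p = 0.0796), and neither was called. The higher value in HFD lay mainly in ENSMUST00000025866, annotated as subject to nonsense-mediated decay, with 7.26 ± 1.70 FPKM in ND and 16.8 ± 0.938 in HFD (SD, n = 3), whereas the coding ENSMUST00000167487 had 12.7 ± 4.67 and 12.2 ± 1.21. With this coding transcript alone, the log2 fold change was -0.00052.

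**Figure D2:**
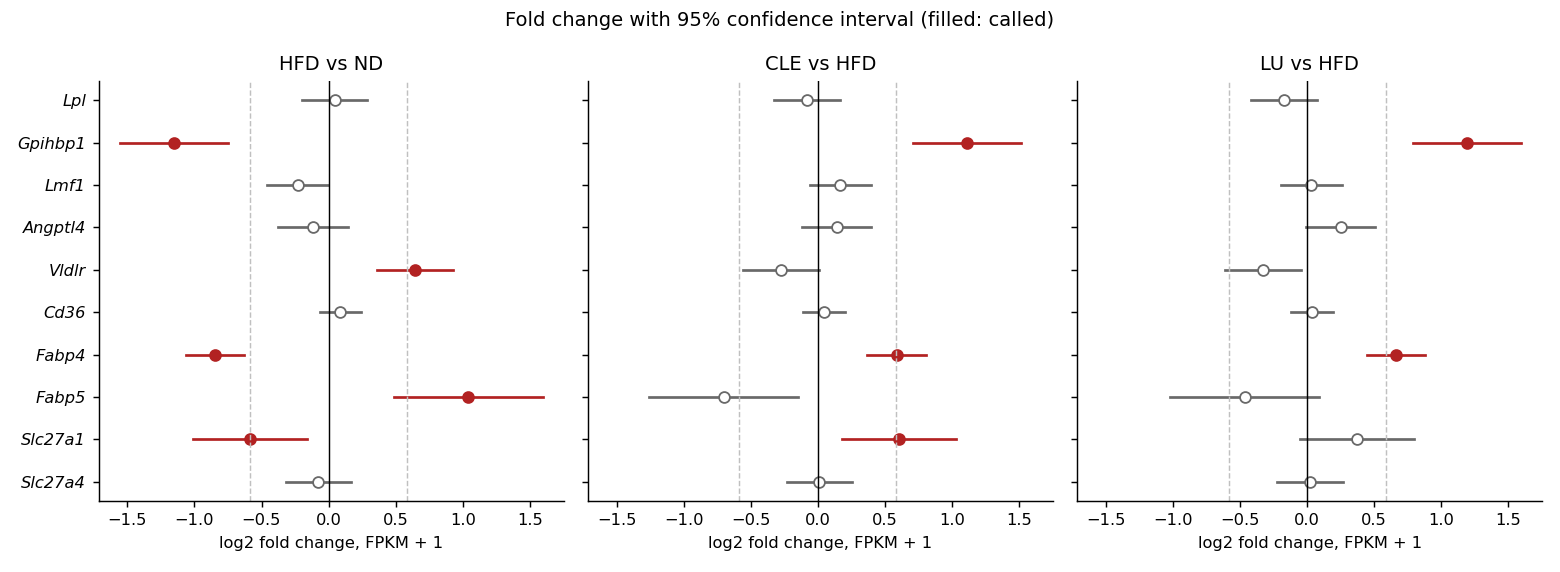
Fold change on the log2(FPKM + 1) scale (horizontal axes) of the 10 genes for HFD against ND, CLE against HFD and LU against HFD, with 95% confidence intervals from limma (lines); filled points were called, open points were not, and dashed lines mark a fold change of 1.5. *Gpihbp1* lies beyond the dashed lines in each panel, from -1.15 to 1.19, and the intervals of *Lpl*, *Cd36* and *Slc27a4* lie between them.

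CD36 is the main membrane protein for uptake of long-chain fatty acids in fat. *Cd36* (ENSMUSG00000002944, chromosome 5 from 17781690 to 17888801, minus strand) had 2096, 1956 and 1941 FPKM in ND, 2133, 2069 and 2162 in HFD, 2130, 2281 and 2170 in CLE, and 2151, 2128 and 2251 in LU. It had the smallest standard error of the 10 genes, with a log2 fold change of 0.09 for HFD against ND (95% confidence interval -0.07 to 0.24), 0.05 for CLE against HFD (-0.11 to 0.20) and 0.04 for LU against HFD (-0.12 to 0.19).

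The *Cd36* transcripts fall into sets by where they start, and this makeup differed between the groups, a feature singled out after its values were seen. Transcripts that start at 17835896, the start site of the RefSeq promoter shown here, held 23.8%, 26.5% and 22.9% of the *Cd36* value in ND, 35.7%, 33.9% and 34.9% in HFD, 22.2%, 23.1% and 23.2% in CLE, and 24.8%, 23.9% and 23.0% in LU. The 3 HFD mice were above the other 9, and the other groups overlapped. In FPKM these transcripts stood at 487 ± 38.8 in ND, 739 ± 32.7 in HFD, 501 ± 27.2 in CLE and 520 ± 13.2 in LU (SD, n = 3). Transcripts that start between 13896 and 14271 bases upstream held 65.9% ± 1.42 in ND, 57.9% ± 1.53 in HFD, 66.9% ± 1.86 in CLE and 66.7% ± 0.811 in LU. With 3 mice against 3, an exact permutation test cannot go below a two-sided p of 0.1, so no p is attached to the split, which rests on the authors' assembly of transcripts.

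Promoter sequences from RefSeq (GRCm38.p6, 250 bases before to 50 after the start) were at hand for 5 of the 10 genes. *Cd36* and *Slc27a1* are shown because the transcript rows bear on where they start, in lower case on the strand of the gene, with matches on either strand to AGGTCA (the core motif of nuclear receptors such as PPARG), to the TATA box TATAAA, to the CCAAT box CCAAT and to the GC box GGGCGG in capitals. *Cd36* is chr5:17835847-17836146 and *Slc27a1* is chr8:71568621-71568920.
Cd36: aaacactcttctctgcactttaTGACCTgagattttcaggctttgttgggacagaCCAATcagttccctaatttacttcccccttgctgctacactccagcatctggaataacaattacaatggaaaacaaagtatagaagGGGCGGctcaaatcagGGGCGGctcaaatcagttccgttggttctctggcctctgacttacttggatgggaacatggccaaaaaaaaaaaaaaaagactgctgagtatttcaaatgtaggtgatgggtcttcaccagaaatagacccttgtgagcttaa
Slc27a1: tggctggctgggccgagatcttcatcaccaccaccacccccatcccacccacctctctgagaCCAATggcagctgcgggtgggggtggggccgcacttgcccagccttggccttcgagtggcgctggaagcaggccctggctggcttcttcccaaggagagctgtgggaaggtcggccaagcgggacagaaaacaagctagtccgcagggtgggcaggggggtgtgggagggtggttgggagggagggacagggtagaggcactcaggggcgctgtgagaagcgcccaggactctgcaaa
The *Cd36* window holds 1 AGGTCA match on the opposite strand, 228 bases before the start, with CCAAT at 195 and GGGCGG at 109 and 93 bases before it, and no TATAAA. *Slc27a1* has 3 windows in the table, and the one shown is the most upstream, near which 8 of its 10 transcript rows start. It holds CCAAT at 188 bases before the start and none of the other motifs, while the other windows hold 1 and 3 GGGCGG matches. Over all 32851 promoters of this length, 16.3% hold AGGTCA, 13.6% TATAAA, 37.4% CCAAT and 35.7% GGGCGG. A match describes the letters in this window only.

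**Figure D3:**
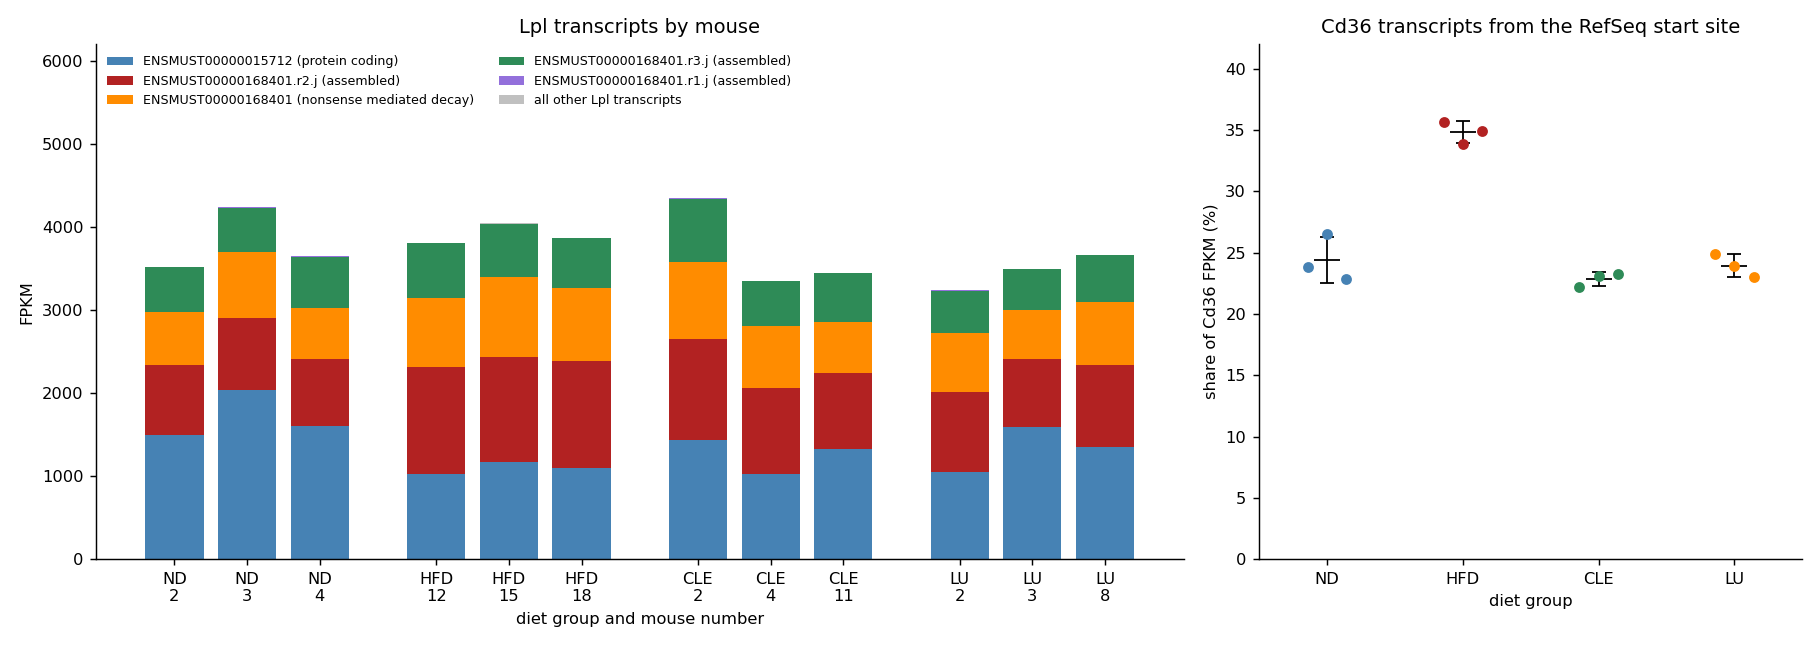
Left, FPKM of the *Lpl* transcripts (stacked bars, vertical axis from 0) in each mouse. Right, share of the *Cd36* FPKM (%) in transcripts that begin at the RefSeq start site, by mouse (points) with group mean and SD (bars). The coding *Lpl* transcript is at 1021 to 1173 FPKM in HFD, below all ND mice, while the totals of ND and HFD overlap, and the *Cd36* share is 33.9% to 35.7% in HFD and at most 26.5% elsewhere.

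FATP1, the transporter that also activates the fatty acids it carries, is encoded by *Slc27a1* (ENSMUSG00000031808, chromosome 8 from 71568882 to 71587302, plus strand). It had 480, 252 and 304 FPKM in ND, 210, 234 and 220 in HFD, 344, 326 and 340 in CLE, and 237, 319 and 310 in LU. Lowest were the 3 HFD mice, ND mouse 2 stood far above the rest, and the CLE mice were all above the LU mice. *Slc27a1* fell with HFD against ND by a log2 fold change of -0.59 (SE 0.19, adjusted p = 0.0254) and rose with CLE against HFD by 0.60 (adjusted p = 0.0321). LU against HFD gave 0.37 (adjusted p = 0.177), and the difference of CLE from LU, 0.23, did not pass the test (95% confidence interval -0.19 to 0.66, adjusted p = 0.909).

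Both calls of *Slc27a1* were close to the thresholds. The fall in HFD was -0.32 without ND mouse 2 (adjusted p = 0.0707), -0.55 without HFD mouse 12 and -0.58 without HFD mouse 18, and none of these was called. ND mouse 2 is the ND library without the letter R. Among the libraries without the letter, with ND mouse 2 as the sole ND mouse and its spread taken from the other groups, the fall was -1.12 (adjusted p = 0.000887). The rise with CLE kept a log2 fold change between 0.57 and 0.64 when any of HFD mice 12, 15 and 18 or CLE mice 2, 4 and 11 was left out, but its adjusted p was then between 0.0585 and 0.092. Assembled transcripts held 83.9% of the *Slc27a1* value. Of its 10 rows, 8, with 81.7% of the value, start within 25 bases of the most upstream of its 3 RefSeq start sites, 71568871. Without the assembled transcripts, LU against HFD was called higher, at 0.70 (adjusted p = 0.0356 from limma). With the transcript of the highest mean alone it was also called, at 0.78 (adjusted p = 0.0156). The fall in HFD was -0.56 without the assembled transcripts and was not called. It was -0.58, and not called, with libraries scaled to equal totals or by median ratios. The rise with CLE stayed called in these alternatives, but not without the filter on low values (adjusted p = 0.0625).

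FATP4, the related transporter encoded by *Slc27a4* (ENSMUSG00000059316, chromosome 2 from 29802634 to 29817522, plus strand), had 13.7, 13.3 and 12.3 FPKM in ND, 13.0, 12.2 and 11.9 in HFD, 13.4, 10.1 and 14.3 in CLE, and 12.6, 13.0 and 12.2 in LU. The 4 groups overlapped, and the log2 fold change of HFD against ND was -0.08 (95% confidence interval -0.32 to 0.17). On the FPKM scale, which is per length, *Slc27a1* had a mean of 298 over the 12 mice and *Slc27a4* 12.7.

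The carriers moved in opposite directions with HFD. *Fabp4* (ENSMUSG00000062515, chromosome 3 from 10204088 to 10208576, minus strand) was the highest of all genes in each of the 12 libraries. Its FPKM was 19234, 19751 and 20210 in ND, 10463, 11876 and 10657 in HFD, 16946, 16066 and 16490 in CLE, and 15189, 19943 and 17332 in LU. All 3 HFD mice were far below the other 9, the CLE mice were all below the ND mice, and LU reached into the range of ND. *Fabp4* alone held 4.37% to 4.53% of the FPKM summed over genes in ND and 2.37% to 2.64% in HFD. It fell with HFD against ND by a log2 fold change of -0.85 (SE 0.10, adjusted p = 3.73e-05) and rose against HFD by 0.59 with CLE (adjusted p = 0.001) and 0.66 with LU (adjusted p = 0.000801).

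The rise of *Fabp4* with CLE stands at a ratio of means of 1.50, at the threshold itself. Leaving out HFD mouse 12, HFD mouse 18 or CLE mouse 2 gave 0.55, 0.57 and 0.57, under the fold of 1.5 with adjusted p between 0.00506 and 0.00617, and without LU mouse 3 the rise with LU was 0.56 (adjusted p = 0.00349). Quantile normalization gives the highest gene of each library the same value, so *Fabp4* differs by 0 under it. *Adipoq*, the adipocyte hormone adiponectin, moved alongside, with a log2 fold change of -0.84 for HFD against ND. The adipocyte markers *Plin1*, *Lipe*, *Cidec* and *Plin4* had -0.83, -0.62, -0.69 and -1.23, so such a ratio depends on the marker taken. Only *Adipoq* was used. Set against *Adipoq* within each library, *Fabp4* was level, at 930% ± 88.9 in ND, 929% ± 68.1 in HFD, 866% ± 134 in CLE and 964% ± 169 in LU (SD, n = 3). *Lpl* and *Cd36* were not level on that ratio. *Lpl* stood at 178% ± 14.3 of *Adipoq* in ND, 330% ± 19.8 in HFD, 194% ± 33.7 in CLE and 192% ± 30.9 in LU. *Cd36* stood at 94.7% ± 15.3, 179% ± 13.9, 115% ± 15.6 and 120% ± 15.8 in the same order. For both ratios the lowest HFD mouse was above the highest of the other 9. Fewer adipocytes, less *Adipoq* per cell, and *Lpl* or *Cd36* RNA from other cells cannot be told apart here. The part of macrophages, whose markers were highest in HFD, was not tested.

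*Fabp5* lies 187 kilobases from *Fabp4* (ENSMUSG00000027533, chromosome 3 from 10012548 to 10016607, plus strand) and went the opposite way. Its FPKM was 130, 264 and 272 in ND, 399, 435 and 472 in HFD, 262, 211 and 342 in CLE, and 280, 344 and 323 in LU. The HFD mice were the highest 3, ND mouse 2 the lowest, and LU lay above ND without overlap. *Fabp5* rose with HFD against ND by a log2 fold change of 1.04 (SE 0.25, adjusted p = 0.00533), which was 0.69 and still called without ND mouse 2. Among the libraries without the letter R, where ND mouse 2 is the sole ND mouse, it was 1.74. Against HFD it stood at -0.70 with CLE (adjusted p = 0.052) and -0.46 with LU (adjusted p = 0.199), and neither passed the test. The value for CLE lies at the threshold. It was called without ND mouse 2, 3 or 4, with -0.70 and adjusted p of 0.00606, 0.0472 and 0.0452. It was also called without CLE mouse 11, with -0.88 (adjusted p = 0.0288). With each of the 12 libraries left out in turn, it ran from -0.88 to -0.54, with adjusted p from limma up to 0.182.

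The libraries with keratinocyte markers bear on *Fabp5*, a gene that epidermis also expresses. HFD mouse 12 had the lowest *Fabp5* of its group and CLE mouse 11 the highest. Without both libraries, an alternative chosen after seeing the data, the difference of CLE from HFD was -0.94 (adjusted p = 0.0489) and the rise with HFD against ND was 1.10 (adjusted p = 0.0112). Without these mice *Slc27a1* was called in neither comparison (-0.55 and 0.56) and *Fabp4* not with CLE (0.55). Markers of macrophages, cells that also express *Fabp5*, were highest in the HFD mice too. CLE mouse 11 had the highest sum of lipid-associated macrophage markers of its group, 241 FPKM against 31.2 and 55.0. In HFD and LU the order differed. HFD mouse 12, lowest in *Fabp5*, had the highest sum of its group, 1021 FPKM against 774 and 850. LU mouse 3 had the highest *Fabp5* of its group and the lowest sum, 95.3 FPKM against 120 and 221. The part of these cells in the values of *Fabp5* was not tested.

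As a ratio within each library, *Fabp5* was 0.674%, 1.34% and 1.35% of *Fabp4* in ND, 3.82%, 3.66% and 4.43% in HFD, 1.54%, 1.32% and 2.08% in CLE, and 1.84%, 1.72% and 1.86% in LU. Each HFD mouse was above all the others, with a mean of 3.97% against 1.12% in ND. In the leading transcripts, none of the 797 windows of 100 bases, the read length, of *Fabp4* occur in another gene of GENCODE M21, while 80 of the 888 windows of *Fabp5* also occur in *Gm14328* or *Gm6166*. Its level is uncertain to the extent that fragments were split with these copies. The gene closest to *Fabp5* over the 12 libraries was *Anxa2* (r = 0.98), a membrane-binding protein, and the closest to *Fabp4* was *Smim11* (r = 0.99).

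**Figure D4:**
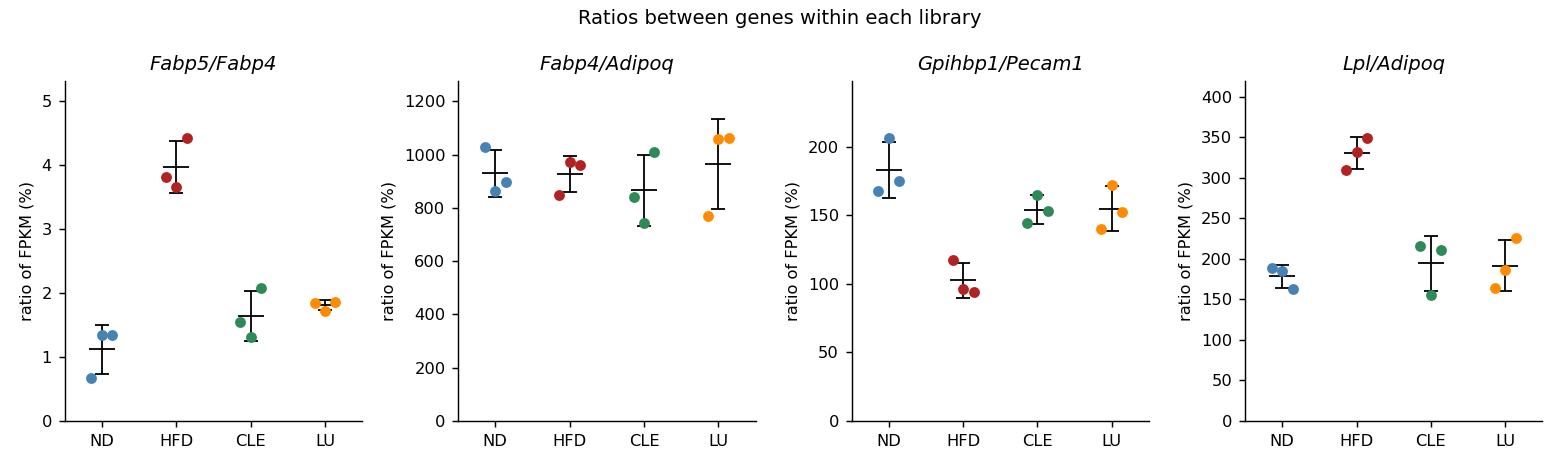
Ratios of FPKM within each library (%, vertical axes from 0) by mouse (points), with group mean and SD (bars). *Fabp5*/*Fabp4* and *Lpl*/*Adipoq* are highest in HFD, at means of 3.97% and 330%, *Gpihbp1*/*Pecam1* is lowest there at 103%, and *Fabp4*/*Adipoq* is between 866% and 964% in the 4 groups.

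Against ND, CLE and LU called none of the 10 genes with limma. In CLE against ND 2 genes had an unadjusted p under 0.05 and the lowest adjusted p was 0.112, where 2.91% of all genes were called. In LU against ND 2 genes did, with a lowest adjusted p of 0.134, and 6.59% of all genes were called. *Gpihbp1* stood at 98.3% of its ND mean with CLE and 102% with LU, and the log2 differences had intervals of -0.44 to 0.36 and -0.36 to 0.44. *Fabp4* stood at 83.6% with CLE and 88.6% with LU, *Vldlr* at 130% and 125%, and *Fabp5* at 122% and 142%. The means of these 3 genes lay between those of ND and HFD, and no difference from ND passed the test.

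CLE was an extract that, per the study, itself contained luteolin, and LU was luteolin by itself, at a different dose. No difference between CLE and LU passed the test for the 10 genes. None had an unadjusted p under 0.05 and the lowest adjusted p was 0.902. Over all tested genes 0.00783% were called, which is 1 gene. The widest interval was that of *Fabp5*, with a log2 difference of CLE minus LU of -0.24 and a 95% confidence interval of -0.79 to 0.32, which includes differences over 1.5-fold.

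A coarser measure is whether the 3 mice of each group overlap. For HFD against ND, 6 of the 10 genes did not overlap, beside 59.5% of all tested genes. For CLE against HFD 6 did not (50.6% of all genes) and for LU against HFD 7 did not (47.6%). For CLE against ND and LU against ND 3 genes each did not (24.7% and 30.1%), and for CLE against LU 1 did not, *Slc27a1* (9.03%). The shares of the 10 genes are near those of all genes in the comparison of HFD with ND.

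The genes around the 10 were taken from 6 lists of the same route, holding 44 genes of which 36 were tested. HFD against ND called 7 of the 36 higher and 2 lower, CLE against HFD 3 higher and 5 lower, and LU against HFD 2 higher and 5 lower. These are 25%, 22.2% and 19.4% of the list genes, beside 25.6%, 16.5% and 12.4% of all tested genes, so that the share for HFD against ND was near that of all genes. Among the genes that process or assist the lipase, 12 tested, HFD called 2 higher and 2 lower. *Sel1l*, an endoplasmic reticulum protein that helps lipase leave that compartment, had 46.8 FPKM on average in ND and 75.4 in HFD. *Sdc1*, a heparan sulfate proteoglycan that binds lipoproteins, had 9.66 and 37.6. *Apoe*, an apolipoprotein ligand of lipoprotein receptors, had 4701 and 2908, and *Pcsk6*, a protease, 42.6 and 20.2. *Apoe* rose and *Sdc1* fell against HFD with both supplements, by log2 fold changes of 0.70 and -1.10 with CLE and 0.64 and -1.04 with LU.

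Of the 5 other lipoprotein receptors tested, *Lrp1*, which takes up lipoprotein remnants, was called higher in HFD and lower with CLE and with LU. *Lrp1* was 150, 126 and 139 FPKM in ND, 256, 211 and 230 in HFD, 139, 138 and 159 in CLE, and 143, 128 and 164 in LU. The HFD mice were above all others. On the log2(FPKM + 1) scale, the largest change of the lists was that of *Lipa*, the lysosomal acid lipase, which degrades lipoprotein lipid after uptake and is abundant in macrophages. *Lipa* had 30.6, 29.1 and 28.4 FPKM in ND, 268, 223 and 259 in HFD, 42.1, 49.3 and 82.0 in CLE, and 64.4, 58.6 and 93.8 in LU. HFD against ND gave it a log2 fold change of 3.04, with -2.15 for CLE against HFD and -1.80 for LU against HFD, with adjusted p of at most 0.000284. The macrophage markers moved the same way, as given above, and their part was not tested.

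Among the other fatty acid carriers, 6 tested, *Fabp7* and *Fabp3* were called higher in HFD, at low levels of 3.35 and 1.62 FPKM on average against 0.138 and 0.191 in ND, and lower with CLE and LU. *Slc27a3*, a further member of the transporter family, was called higher with CLE (log2 fold change 0.89) and LU (0.68) against HFD, from a mean of 1.35 FPKM. Of 4 tested enzymes that activate fatty acids, *Acsl5* was called higher in HFD against ND (0.73). Of 7 transcription factors of adipocytes and of lipid metabolism, limma called none in the 3 comparisons. At an unadjusted p under 0.05, 3 differed in HFD against ND, 3 in CLE against HFD and 2 in LU against HFD, all under the fold of 1.5. The adjusted p from limma was under 0.05 for 3, 3 and 1 genes in that order, which missed the call by the fold alone. Their median log2 fold change was -0.17, 0.17 and 0.09 in that order.

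**Figure D5:**
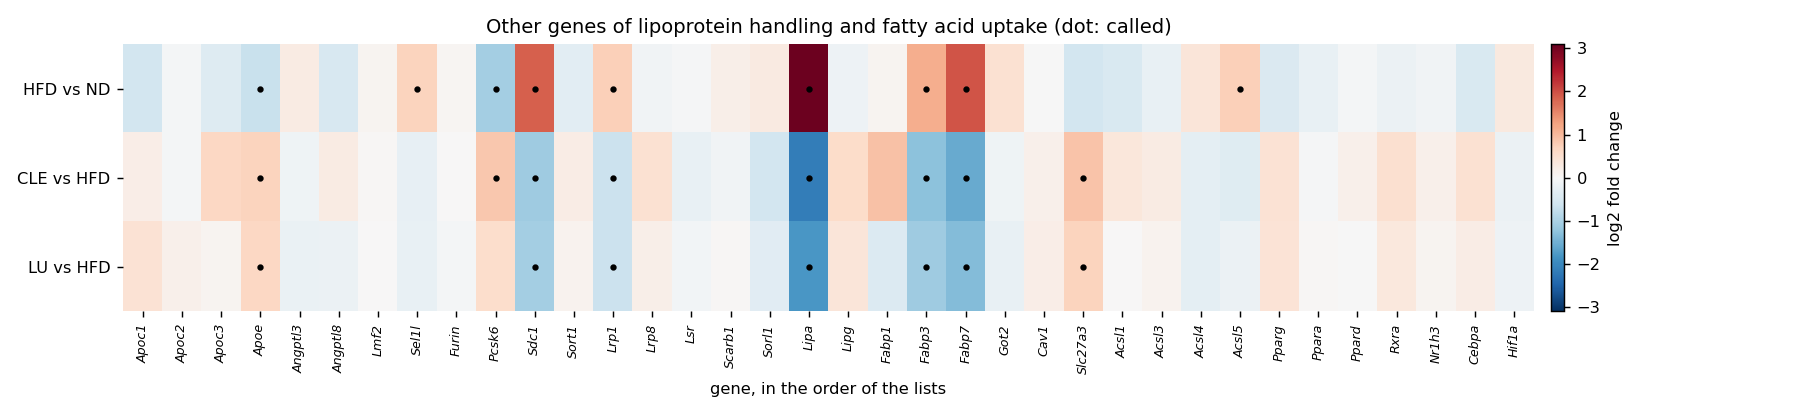
Log2 fold change (colour, on the log2(FPKM + 1) scale) of the 36 tested genes of the lists (columns) in 3 comparisons (rows); dots mark called genes. *Lipa*, *Fabp7* and *Sdc1* are the strongest positive values on this scale for HFD against ND, from 3.04 to 1.86, and are negative for CLE and LU against HFD.

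The 10 genes did not move as a block over the 12 libraries. *Gpihbp1* and *Fabp4* had a Pearson's r of 0.83 over the log2 values, but -0.18 once the group means were taken away, so their likeness lay between the diet groups and not between mice of a group. *Vldlr* and *Slc27a1* had -0.77, and -0.75 after the group means were taken away. *Lpl* and *Gpihbp1*, enzyme and anchor, had -0.59 and -0.81. The 12 points share 4 groups and 1 normalization by the authors, and these values are descriptions.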

How the data were processed

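RNA of eWAT from 3 mice of each of 4 groups was measured. The authors deposited FPKM per transcript, and per the submitters' processing notes CASAVA 1.8.2, Bowtie2 2.2.3, TopHat2 2.0.12 and Cufflinks 2.2.1 were used; the genome build is not given in the sources used here. The table has 15 FPKM columns, and the 3 that no label matches were left aside, as were the authors' marks of differential genes. The column headed MD4 was assigned to ND mouse 4 from its number, letter and comparison header. Library kit and reads (100 bases, paired) are as stated in the methods.

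Of the 152210 rows, 140416 of Ensembl transcripts, plain or assembled with class code = or j, were summed per gene. Coordinates are those of GENCODE M21 (GRCm38), in which 77000 of 78786 known transcripts were found, 87.6% with the same start and end. limma 3.58.1 in R 4.3.3 was run on log2(FPKM + 1) for genes that reached 1 FPKM in 3 or more libraries, with group as the only term and untrended empirical Bayes moderation, over 6 contrasts with Benjamini-Hochberg adjustment within each. A pseudocount of 1 understates changes of low genes. The method was tested on simulated data. Differences of single genes between 3 and 3 mice can reach a two-sided exact permutation p of 0.1 at the lowest. Tables and plots used Python 3.11.15, pandas 2.3.3, numpy 2.4.6, scipy 1.17.1 and matplotlib 3.10.9.

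The members, lists, markers and alternatives were chosen with earlier results of these data known. Named were all 10 genes, list genes called in a comparison with HFD, marker genes, and genes most like a member by Pearson's r; 3 such genes were sought per member, and those of *Gpihbp1*, *Fabp4* and *Fabp5* are given in part. Alternatives were another pseudocount (0.1), no filter or a mean of 5 FPKM, other scalings, only the groups compared, trended moderation, the letter R as covariate or those libraries left out, the adjusted p alone, other transcript sums, the replicate block, each library left out in turn, and HFD mouse 12 and CLE mouse 11 left out (added after seeing the data). The result of 1 listed gene is not reported here.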

Additional observations from a re-analysis of the deposited data

How the results depend on the processing

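Of the log2 fold changes of the 10 genes over 6 comparisons, 702 of 720 kept their side of the thresholds with 1 library left out, and 816 of 840 under the other alternatives. Most of these values were not called in the main fit and had no call to lose, so these shares do not measure how stable the calls were. With 1 library left out, 14 calls were lost, all of *Slc27a1*, *Fabp4* or *Vldlr*, and 4 were gained, all of *Fabp5*. With each gene's highest transcript instead of its sum, *Lpl* in HFD against ND turned to -0.63 and *Vldlr* to -0.000515. Of the 10 genes, quantile normalization called 3 in HFD against ND and 1 in LU against HFD, and leaving out 1 library called between 3 and 5 in HFD against ND, 1 and 4 in CLE against HFD, and 1 and 2 in LU against HFD. Without the libraries with the letter R, which leaves 1 ND mouse, 1 gene was called in CLE against ND (*Fabp5*) and 2 in LU against ND (*Fabp5* and *Slc27a1*). Over all genes, the adjusted p alone gave 6445 calls in HFD against ND, 4298 in CLE against HFD, 3428 in LU against HFD, 661 in CLE against ND and 1635 in LU against ND, beside 3273, 2105, 1590, 372 and 842 with the fold. The calls of CLE against ND were 227 with no filter, 0 with only the groups compared, 183 without the letter R, 207 with the transcript of the highest mean, 224 without class code j, 29 without HFD mouse 12 and CLE mouse 11, and between 124 and 498 with 1 library left out. CLE against LU had 1 call and 0 under most alternatives, with 0 to 1 when 1 library was left out. Mouse numbers recur across ND, CLE and LU, but deviations of same-numbered mice had correlations of -0.10 to 0.19, so the numbers were not taken as pairs. With the replicate block, CLE against ND had 2 calls, LU against ND 407 and CLE against LU 0, and none of the 10 genes was called in these. The causes of these changes were not tested. FPKM without counts, 3 selected mice per group and whole tissue limit each value.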
